A study of Mus musculus with 4 samples.

Results

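The amino acid transporters described here are the array's probe sets (groups of probes that report 1 transcript) whose single gene symbol belongs to the solute carrier families Slc1, Slc3, Slc7, Slc36, Slc38 or Slc43. The rule used names only and found 86 probe sets for 40 genes, of 45037 probe sets on the array outside its controls. Testes of 2 dpp (days post partum) mice of strain 129 were held for 24 h in organ culture, and every sample had medium with 10% fetal bovine serum. The 2 vehicle samples received dimethyl sulfoxide, and the 2 treated samples received WIN 18,446 at 1 µM, an inhibitor of the dehydrogenases that make retinoic acid. Levels are the deposited log2 values of Affymetrix mouse genome arrays, and the labels do not say whether samples came from separate animals or cultures, so p-values measure the spread between these 4 samples alone, and that spread may be technical.

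Cells import amino acids through carriers that differ in substrate and in driving force. The Slc7 light chains are held at the cell surface by a heavy chain of the Slc3 family and exchange large neutral, basic or acidic amino acids, while the cationic branch of Slc7 works alone. Slc1 proteins carry glutamate or small neutral amino acids, the Slc38 family holds the sodium-coupled systems A and N and some lysosomal proteins, Slc36 proteins are coupled to protons, and Slc43 proteins include facilitative carriers of large neutral amino acids. Several of these genes are known targets of Atf4, the transcription factor that cells make more of when amino acids run short or other stresses halt translation. Sertoli cells of the testis are known to feed germ cells and need transporters of their own to do so.

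The known Atf4 response acts through a short DNA element that joins a part bound by C/EBP proteins to a part bound by ATF proteins. RefSeq promoter windows of assembly GRCm38.p6, each 300 bases from 250 before to 50 after a start of transcription, were searched for 29 of the 40 transporter genes. Slc1a4, Slc3a2 and Slc38a9 are among them, and Slc7a3 and Slc1a5 were not searched. The element, searched as TGATGNAA on both strands, was found in 3 of these 29 genes (10.3%), against 4.51% of the 27025 genes with a window. The 3 genes are shown because they did 3 different things in the arrays. Slc1a4 was called higher, Slc7a11 had no signal above background, and Slc7a7 was lower without a call. Of these Slc1a4 is shown by the rule set for called genes with a match, and Slc7a11 and Slc7a7 were added after their values were seen. Capitals mark each match, the strand of every stretch is minus, and bases are counted from the start of transcription.

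The Slc1a4 stretch is chr11:20332710-20332757 (bases -44 to 4), where the match runs across the start from -4 to 4:
Slc1a4: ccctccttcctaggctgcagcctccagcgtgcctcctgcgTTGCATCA

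The Slc7a11 stretch is chr3:50443614-50443719 (bases -106 to -1), with 2 matches in opposite orientation at -66 to -59 and -47 to -40:
Slc7a11: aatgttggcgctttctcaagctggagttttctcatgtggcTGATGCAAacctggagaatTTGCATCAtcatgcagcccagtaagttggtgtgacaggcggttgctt

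The Slc7a7 stretches are chr14:54418038-54418125 (bases -181 to -94) and chr14:54417938-54417985 (bases -41 to 7):
Slc7a7 upstream: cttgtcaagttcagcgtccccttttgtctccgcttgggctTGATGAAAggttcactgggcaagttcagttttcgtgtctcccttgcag
Slc7a7 at the start: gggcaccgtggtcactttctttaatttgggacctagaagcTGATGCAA

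Other motifs were also searched on both strands. Retinoic acid response elements with 5 bases between their repeats were in 0 of the 29 genes (0.115% of all genes). Those with 2 bases between were in 1, Slc7a7 (0.311% of all genes). With a share of 0.115% over all genes, 0 of 29 cannot tell these genes from others. The antioxidant response element TGACNNNGC was in 5 genes (17.2%, against 14% of all), namely Slc36a1, Slc38a2, Slc43a1, Slc7a1 and Slc7a6. The E-box CACGTG was in 7 (24.1%, against 8.09%), namely Slc1a6, Slc1a7, Slc36a1, Slc38a5, Slc38a7, Slc43a1 and Slc7a14, and in Slc36a1 a match overlapped one of the antioxidant element. None of these overlapped a match of the composite element. Each count describes letters in these windows and is no measurement of binding.

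Of the 86 probe sets 40 had a mean level of at least 5 over the 4 arrays and were tested, which left 25 of the 40 genes with a test. The share tested, 46.5%, was close to the 46.4% of all probe sets. The other 15 genes had no tested probe set. In 12 of these every probe set read at or below 2.22 on all 4 arrays, which is the highest level reached by any control probe set for bacterial RNA. Slc7a11, the light chain of the cystine and glutamate exchanger, was among the 12, and its 2 probe sets read between 2.05 and 2.21. The glutamate transporters Slc1a1 and Slc1a7, the light chains Slc7a9, Slc7a10, Slc7a13 and Slc7a15, Slc7a14 of the cationic branch, the proton-coupled Slc36a2 and Slc36a3, the system N carrier Slc38a3 and Slc43a1 were the others. Slc1a2, Slc7a12 and Slc43a2 were above that background on some array but under the level for a test. For Slc43a2, a carrier of large neutral amino acids, the brightest probe set read 4.0 and 4.16 with vehicle and 4.0 and 3.99 with WIN 18,446. One probe set of Slc1a2, the main glutamate transporter of brain astrocytes, read 3.31 on treated array 1 and 2.17 to 2.18 on the other arrays. In bulk tissue, fewer cells of a type and less RNA per cell cannot be told apart.

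Median levels of the arrays lay between 3.72 and 3.83. One control probe set of 18S ribosomal RNA read 6.55 on treated array 1 and 8.12 to 8.67 on the others. Tests ran over 20895 probe sets, and a probe set is called when limma's Benjamini-Hochberg adjusted p over all of them is under 0.05. Of all tested probe sets 5.18% were called, 2.27% higher and 2.91% lower with WIN 18,446. In this main fit limma gave 22.0% of them an unadjusted p under 0.05. Without vehicle array 1 or without vehicle array 2 limma called 0 probe sets anywhere on the array (2455 and 2820 at an unadjusted p under 0.05), and likewise 0 transporters (12 and 9 at an unadjusted p under 0.05). With no level filter limma called 3 probe sets in all and 0 transporters. At an unadjusted p under 0.05 it then gave 18 of 86 transporter probe sets, against 5250 of all 45037. Every call below therefore needs the filter and both vehicle arrays. For called transporters the range of the difference with 1 array left out is given, and for genes of the other lists it was not computed.

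Among the transporters 6 of 40 tested probe sets were called (15%). They were 4 higher (10%, against the 2.27% of all probe sets) and 2 lower (5%, against 2.91%). The higher count includes Slc7a3, which passed the level filter only through its treated arrays and so had to differ. With a mean of at least 7 as the filter 3 of 38 were called higher, but that count has the same limit. It includes a Slc1a4 probe set that passed only through its treated arrays (6.36 and 6.08 with vehicle, 8.03 and 8.60 treated). Slc1a5, also called lower there, passed only through its vehicle arrays (8.21 and 8.03, against 6.54 and 6.33 treated). These shares of called probe sets are a description and support nothing further. The higher ones belonged to Slc7a3, Slc1a4 with both its tested probe sets, and Slc3a2. The lower ones belonged to Slc1a5 and Slc38a9. Counted once per gene, by the brightest probe set (that of highest mean), 3 of 25 genes rose, 2 fell and 20 were not called, against 2.94% of all genes higher and 3.46% lower. The 25 genes did not lean one way, since 13 had a positive and 12 a negative difference, and their median was 0.02 log2 units. Over probe sets the median was -0.07 for the transporters and -0.02 for all tested. The treated arrays lay wholly above the vehicle arrays in 25% of the tested transporter probe sets, against 23.8% of all, and wholly below in 35%, against 29.3%.

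**Figure D1:**
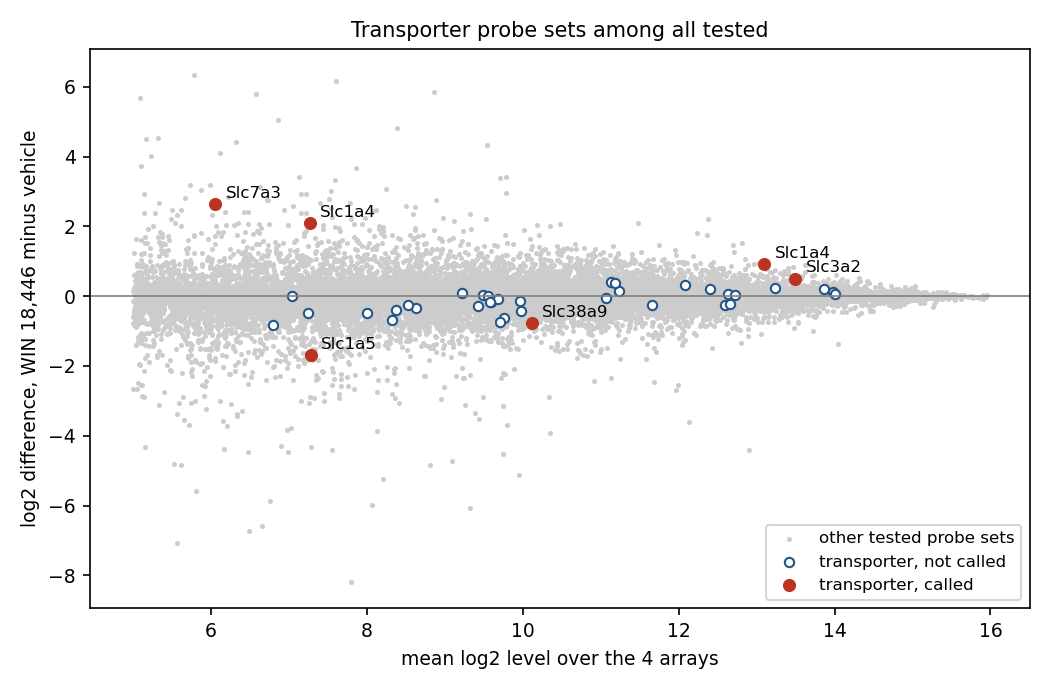
Each point is a tested probe set, with its mean log2 level over the 4 arrays across and its log2 difference, WIN 18,446 minus vehicle, upward; grey points are other genes, open circles transporters not called and red points transporters called. Slc7a3 lies highest among the transporters at 2.63 and Slc1a5 lowest at -1.69, while the open circles stay between -0.84 and 0.40.

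Slc3a2, the heavy chain that carries most Slc7 light chains to the surface (CD98), read 13.26 and 13.24 with vehicle and 13.73 and 13.77 with WIN 18,446. Both treated arrays were above both vehicle arrays. It rose 1.42-fold (log2 difference 0.50, SE 0.06, adjusted p = 0.0196), and the difference ran from 0.48 to 0.53 when 1 array was left out. Without a variance trend its adjusted p was 0.0873. Slc3a1, the heavy chain of the kidney's cystine transporter, read 8.70 and 8.61 against 8.16 and 8.63. The groups overlapped through treated array 2 (difference -0.26, adjusted p = 0.544).

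None of the 4 light chains with a test was called. Slc7a5, the leucine and tryptophan exchanger LAT1 that pairs with Slc3a2, read 13.77 and 13.76 with vehicle and 13.84 and 14.08 with WIN 18,446. Its difference of 0.20 had a 95% interval of -0.04 to 0.43 (adjusted p = 0.295), and the difference from Slc3a2 was not tested. Slc7a6, which exchanges basic for neutral amino acids, had treated arrays above vehicle arrays in both its probe sets (0.37 and 0.40, adjusted p = 0.137 and 0.13). Slc7a7, a near relative with the same exchange, read 7.36 and 7.62 against 6.96 and 7.04 (difference -0.49, adjusted p = 0.249). Slc7a8, the light chain LAT2, stood at 8.70 and 8.63 with vehicle and at 7.99 and 7.95 with WIN 18,446. These groups were well apart, yet the difference of -0.70 missed the threshold (adjusted p = 0.0838), and it passed only where each gene's probe sets were averaged and genes rather than probe sets were tested (adjusted p = 0.0426).

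Slc7a3, a carrier of arginine, lysine and ornithine (CAT3), showed the largest difference of the tested transporters. It read 4.71 and 4.78 with vehicle and 7.19 and 7.55 with WIN 18,446, a level of 4.74 ± 0.0494 (SD, n = 2) against 7.37 ± 0.254. All its treated values were more than 2 log2 units above the vehicle values, which were above the bacterial controls. It rose 6.18-fold (log2 difference 2.63, SE 0.24, adjusted p = 0.0135), from 2.45 to 2.81 with 1 array left out. The probe set passed the level filter through its treated arrays, and it has only this 1 probe set. The other tested members of the cationic branch were not called. Slc7a1, the widely expressed CAT1, read 13.93 and 14.02 against 14.11 and 13.98 (difference 0.07, 95% interval -0.11 to 0.24, adjusted p = 0.626). Its other tested probe set differed by 0.20 (adjusted p = 0.224). Slc7a2 (CAT2), known for arginine supply in macrophages and liver, stood at 9.84 and 10.29 with vehicle and at 9.45 and 9.46 with WIN 18,446 (difference -0.62, adjusted p = 0.144). The 2 tested probe sets of Slc7a4, a relative with no settled substrate, were lower by 0.29 and 0.49 log2 units without a call, their differences being -0.29 and -0.49 (adjusted p = 0.331 and 0.256).

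**Figure D2:**
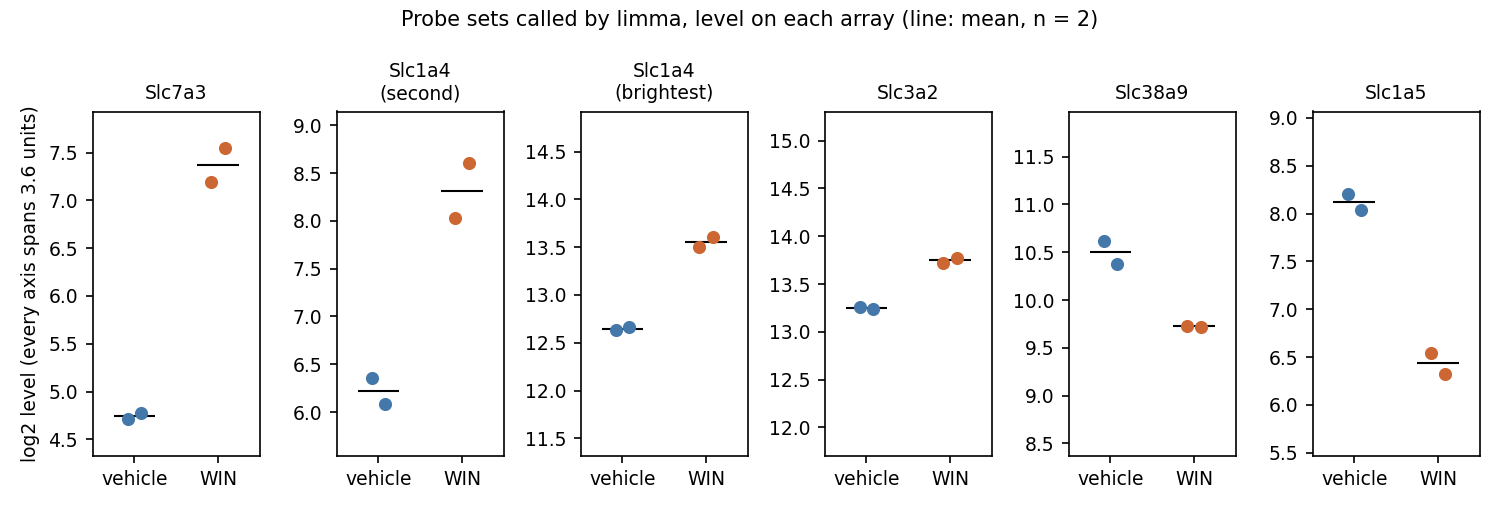
Each panel shows the log2 level of a called transporter probe set on the 2 vehicle arrays (blue) and the 2 WIN 18,446 arrays (orange), with a line at each group's mean; every vertical axis spans the same number of units. Slc7a3, both Slc1a4 probe sets and Slc3a2 sit higher on both treated arrays, and Slc38a9 and Slc1a5 lower.

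Slc1a4 and Slc1a5, the exchangers of small neutral amino acids in the Slc1 family, were called in opposite directions. Slc1a4 (ASCT1), which carries alanine, serine, cysteine and threonine, read 12.63 and 12.66 with vehicle and 13.50 and 13.61 with WIN 18,446 in its brightest probe set. It rose 1.88-fold there (log2 difference 0.91, SE 0.07, adjusted p = 0.0104), and from 0.86 to 0.96 with 1 array left out. Its second tested probe set read 6.36 and 6.08 against 8.03 and 8.60, a 4.27-fold rise (2.09, SE 0.27, adjusted p = 0.0254), which ran from 1.81 to 2.38 with 1 array left out and lost its call without a variance trend. The third, too dim for a test, read 3.22 and 2.92 against 4.51 and 4.64. All 3 probe sets were thus higher on both treated arrays, with sizes that differ, and the mean over the tested ones was 1.5 (adjusted p = 0.00497).

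Slc1a5 (ASCT2), a main entry route for glutamine in growing cells, stood at 8.21 and 8.03 with vehicle and at 6.54 and 6.33 with WIN 18,446. Both treated arrays lay far below both vehicle arrays. It fell 3.22-fold (log2 difference -1.69, SE 0.20, adjusted p = 0.0225), with differences from -1.80 to -1.58 when 1 array was left out. Its other probe set was at background on all arrays. The call held without a variance trend (adjusted p = 0.033).

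Of the glutamate transporters, Slc1a3 (GLAST) had 1 of its 6 probe sets tested, which read 10.15 and 10.23 with vehicle and 9.58 and 9.93 with WIN 18,446. The groups did not overlap, and the difference of -0.44 was not called (adjusted p = 0.205). Slc1a6 (EAAT4), best known from the cerebellum, differed by 0.04 (95% interval -0.33 to 0.40). Its level of 9.57 and 9.37 against 9.51 and 9.50 overlapped between groups.

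None of the system A and system N genes was called. Slc38a2 (SNAT2), the system A carrier known to be induced when amino acids are withdrawn, read 14.04 and 13.80 with vehicle and 14.09 and 13.98 with WIN 18,446. The groups overlapped in all 3 of its probe sets, whose differences were 0.11, -0.05 and 0.00 (adjusted p = 0.559, 0.855 and 0.999), and the 95% interval of the brightest ran from -0.13 to 0.35. Slc38a1 (SNAT1), another glutamine carrier, stood at 13.12 and 13.10 against 13.35 and 13.36. These arrays were separate, but the difference was small (0.24, adjusted p = 0.0868), and its other probe set overlapped (0.09). Slc38a5 (SNAT5) of system N read 11.91 and 11.92 against 12.23 and 12.25 (difference 0.33, adjusted p = 0.0772). Slc38a4, an imprinted gene of system A, differed by -0.23 and -0.09 in its 2 probe sets (adjusted p = 0.318 and 0.826).

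Slc38a9, a lysosomal protein that senses arginine and passes the signal to the growth kinase complex mTORC1, fell in 1 of its 6 tested probe sets. The brightest read 10.62 and 10.37 with vehicle and 9.73 and 9.72 with WIN 18,446 (1.71-fold lower, log2 difference -0.77, SE 0.14, adjusted p = 0.0464). Another read 10.05 and 10.10 against 9.10 and 9.57 (difference -0.74, adjusted p = 0.102). Treated arrays lay below vehicle arrays in 5 of the 6, with differences from -0.84 to -0.33, and the remaining one overlapped (0.01). Of all tested probe sets 29.3% lay wholly below, and the 6 report the same gene on the same arrays, so they are not independent. The overlapping one and the one at -0.33 are of a type whose probes can bind other transcripts. The mean over its probe sets was -0.51 (adjusted p = 0.102). This was the least secure of the calls. It was lost without a variance trend (adjusted p = 0.0774) and without treated array 1 (0.0904). Without treated array 2 its adjusted p was 0.071, while the probe set at -0.74 was then called (-0.97, adjusted p = 0.0399). Across arrays left out, the brightest probe set's difference ran from -0.90 to -0.65.

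The remaining members were not called. Slc38a10 has 3 tested probe sets, whose differences were 0.02, -0.24 and -0.26. In the probe sets at -0.24 and -0.26 treated array 1 alone was low, at 12.22 and 11.29 against 12.68 to 12.75 and 11.74 to 11.82 on the others. Without treated array 2 the one at -0.24 was called lower (-0.50, adjusted p = 0.0429). Slc38a6 and the lysosomal glutamine exporter Slc38a7 differed by -0.18 and -0.13 (adjusted p = 0.545 and 0.69). The proton-coupled Slc36a1 and Slc36a4 differed by -0.18 and 0.06. For Slc43a3, which is known to carry purine bases rather than amino acids, vehicle array 1 (10.88) stood below the other 3 (11.24 to 11.44), and the difference was 0.14.

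**Figure D3:**
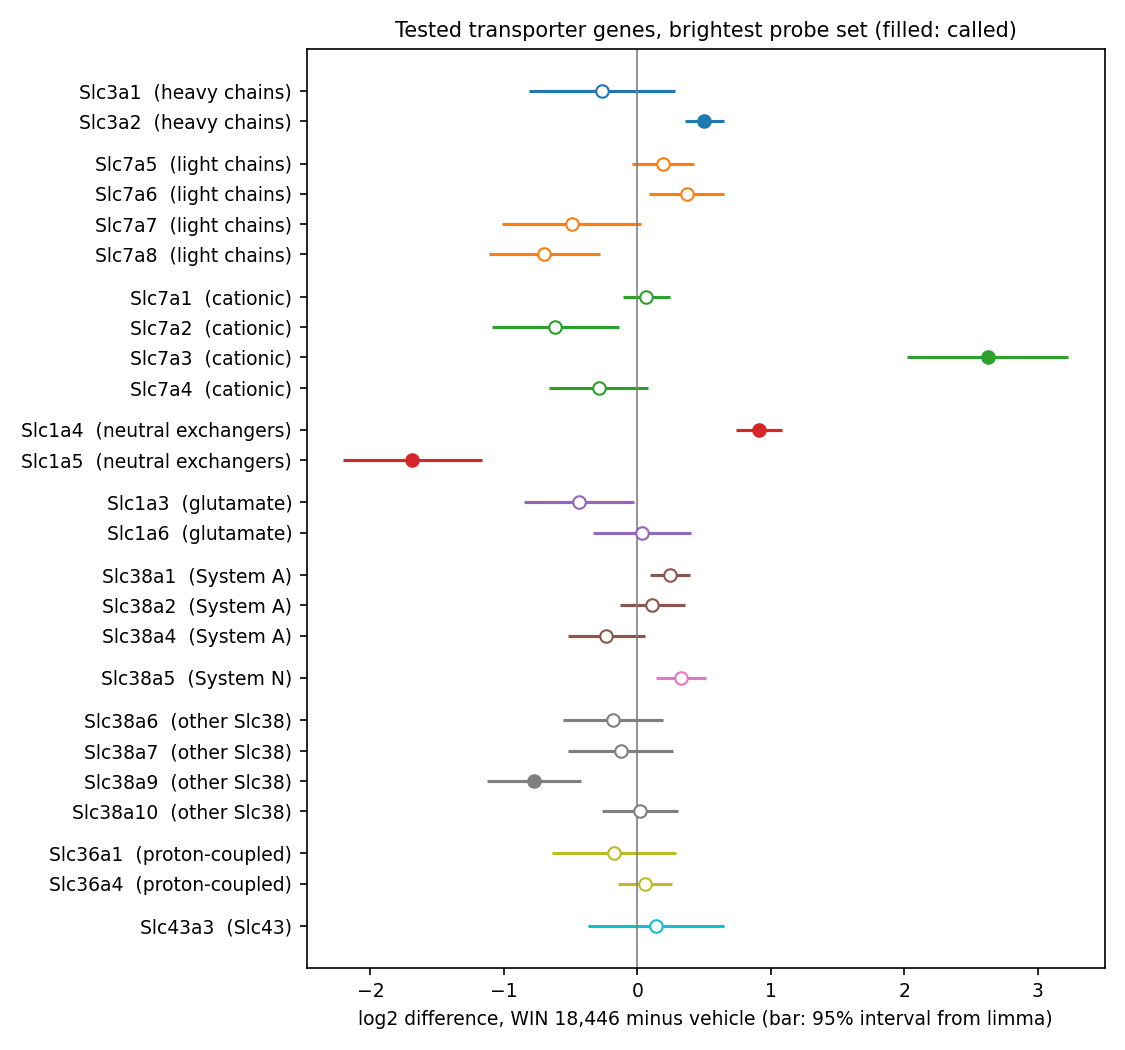
Points are log2 differences, WIN 18,446 minus vehicle, of the 25 transporter genes with a test, each by its brightest probe set and grouped by role; bars are 95% intervals of single genes from limma, and filled points were called. Slc7a3 at 2.63 and Slc1a5 at -1.69 lie outside the range of the others, -0.77 to 0.91, and some open points have bars clear of 0 because the call adjusts over all probe sets.

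By family, the median difference of the tested genes was -0.20 for Slc1 (4 genes), 0.12 for Slc3 (2), -0.11 for Slc7 (8), -0.06 for Slc36 (2), -0.05 for Slc38 (8) and 0.14 for Slc43 (1). In Slc3, Slc7, Slc36, Slc38 and Slc1 alike the positive and negative members were equal in number. The medians lay from -0.20 to 0.12 in families that hold a called rise or fall. For Slc1 and Slc7 the sign changed to positive (0.04 and 0.07) when all tested probe sets were counted, and for Slc38 the median moved to -0.13.

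**Figure D4:**
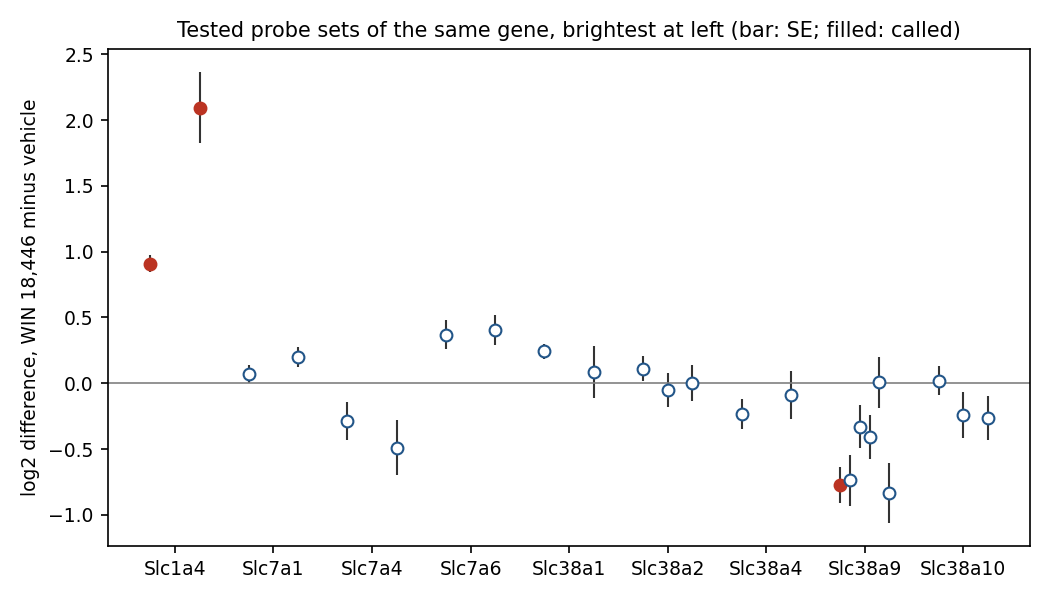
Points are log2 differences, WIN 18,446 minus vehicle, of every tested probe set of the genes that have more than 1, the brightest at the left of each gene, with SE bars and filled points for calls. Both Slc1a4 probe sets are above 0 (0.91 and 2.09), 5 of the 6 of Slc38a9 are below it, and those of Slc38a2 lie on both sides of 0.

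Read by the list of 8 transporters known as Atf4 targets, 3 of the 7 tested were called higher (Slc7a3, Slc1a4 and Slc3a2), 1 lower (Slc1a5) and 3 not (Slc7a5, Slc7a1 and Slc38a2), with a median of 0.20. Of all genes 2.94% were called higher and 3.46% lower, and Slc7a3 counts here although it passed the filter only through its treated arrays. The list was chosen with earlier results of these data known, so its counts are a description. Slc7a11, whose promoter window holds 2 of the elements shown above, was at background in both groups. Among carriers outside the 6 families, Slc6a9, the glycine transporter GlyT1, read 12.57 and 12.55 with vehicle and 13.13 and 12.97 with WIN 18,446. It rose 1.41-fold (0.50, adjusted p = 0.038) and was the 1 called of 5 tested cell surface transporters on the list of 16. The other 4 had negative differences, and the median of that list was -0.08. The taurine transporter Slc6a6 was at -0.30 (adjusted p = 0.182).

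In the wider amino acid response, 8 of 33 tested genes were called higher and 0 lower by limma, 25 were not called, and the median was 0.24. Of all genes 2.94% were called higher and 3.46% lower. At an unadjusted p under 0.05 limma gave 16 of the 33 in either direction, against 22.0% of all tested probe sets. The list was chosen with earlier results of these data known, so these shares are a description and support nothing further. The difference was positive in 23 genes and negative in 10, and every gene named below is among the positive ones. At an adjusted p under 0.10 limma gave 11 higher and 1 lower. Atf4 itself read 13.86 and 13.88 with vehicle and 14.17 and 14.25 with WIN 18,446 (0.34, adjusted p = 0.0376). Chac1, which breaks down glutathione, rose by 3.08, and the related factor Atf3 by 1.38 (adjusted p = 0.0134 and 0.0376). Shmt2 and Mthfd2, mitochondrial enzymes of folate metabolism, rose by 1.07 and 0.65 (adjusted p = 0.0115 and 0.0242). The proline synthesis enzyme Aldh18a1 rose by 0.67 and the glycyl-tRNA synthetase Gars by 0.38 (adjusted p = 0.0168 and 0.0376). The translation repressor Eif4ebp1 rose by 0.57 (adjusted p = 0.0407). Asns, the asparagine synthetase that is a classical target of this response, differed by 0.13 and was not called (adjusted p = 0.595), nor was Trib3 (0.48, adjusted p = 0.333) or the sensor kinase Eif2ak4, known as Gcn2 (0.13, adjusted p = 0.457).

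Of 34 tested genes of amino acid sensing by mTORC1, 1 was called lower and 0 higher by limma, and the median was -0.02. That share is near the 3.46% of all genes called lower. At an unadjusted p under 0.05 limma gave 12 of the 34 in either direction, against 22.0% of all tested probe sets. The called gene was Rragd, a Rag GTPase that brings mTORC1 to the lysosome. It read 12.69 and 12.65 with vehicle and 11.97 and 11.96 with WIN 18,446, a 1.63-fold fall (log2 difference -0.70, adjusted p = 0.0158). The kinase Mtor differed by -0.15 (adjusted p = 0.434). Of 12 tested adaptors and regulators of the transporters 1 was called lower and 11 were not called. Against the 3.46% of all genes called lower, 1 call in 12 genes is not read as a result. The called gene there, Nedd4l, a ubiquitin ligase that removes carriers from the surface, read 10.30 and 10.33 against 9.51 and 9.58. It fell 1.71-fold (adjusted p = 0.0369).

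**Figure D5:**
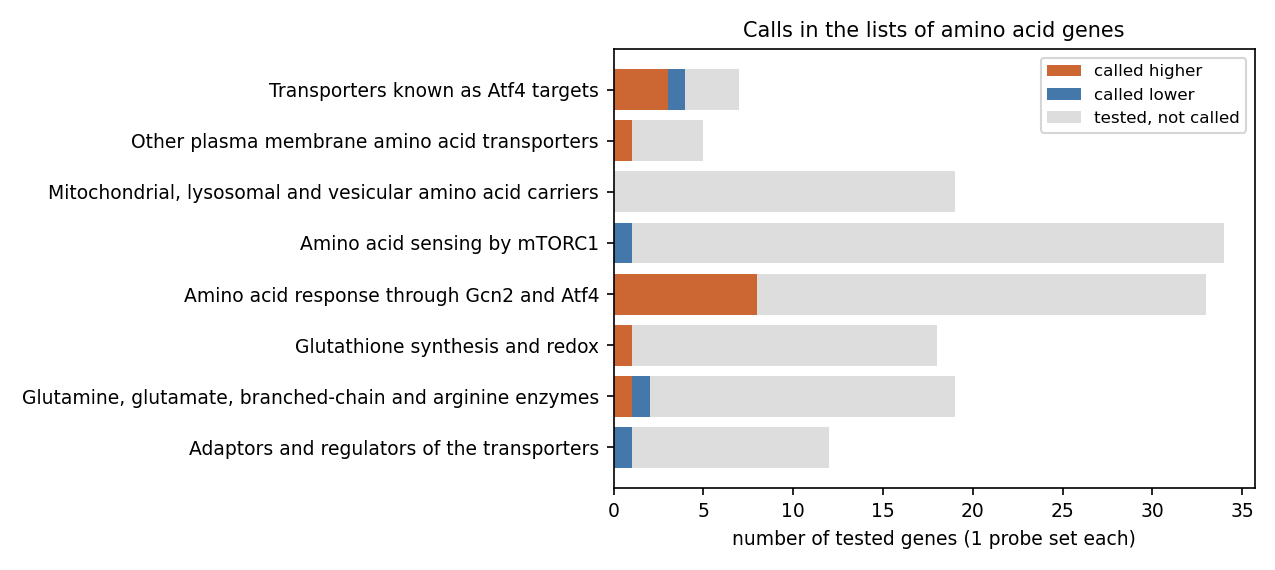
Bars count the tested genes of each list, 1 probe set per gene, split into called higher (orange), called lower (blue) and not called (grey). The amino acid response list holds 8 genes called higher of 33, the list of known Atf4 target transporters 3 higher and 1 lower of 7, and the organelle carrier list none of 19.

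Markers of the cells in the tissue moved in the same samples. Of 11 tested cycling cell genes 7 were called higher and 11 had a positive difference. Of all genes 2.94% were called higher and 3.46% lower, the shares to set beside each count of calls below. A single called gene in a list of this length is not read as a result. The marker lists were chosen with earlier results of these data known, so their counts are a description. The summed level of the cycling cell genes (log2 of summed linear levels) was 15.80 and 16.03 with vehicle and 16.53 and 16.68 with WIN 18,446. Endothelial markers were below 0 in 8 of 8 tested genes, of which Eng was at 0.00 with overlapping groups, and 1 was called lower (Robo4). Their median difference was -0.86, and the mean level of the tested ones was 9.01 and 9.28 with vehicle and 8.44 and 8.41 with WIN 18,446. Their summed level, most of it from Cd34 (difference -0.11), was 13.55 and 13.67 against 13.38 and 13.41. All 14 Sertoli markers were tested, and 6 were called lower, among them Cldn11 and Sox9, while 5 had a positive difference and 0 were called higher. Amh, the hormone of immature Sertoli cells, read 9.37 and 9.85 with vehicle and 11.12 and 10.60 with WIN 18,446 (1.25, adjusted p = 0.0575). The Sertoli median was -0.31, with sums of 17.54 and 17.48 against 17.37 and 17.37. Of germ cell markers 11 of 15 were tested, 1 fell (Sall4), 6 had a positive difference and the median was 0.02. Dazl and Ddx4 were at 0.29 and 0.24 with groups apart but no call (adjusted p = 0.113 and 0.23). Among all tested probe sets 23.8% had treated arrays wholly above vehicle arrays. Stra8, known as a retinoic acid target of germ cells, was too dim for a test in the mean and read 7.02 and 6.42 with vehicle and 2.03 and 2.04, at background, with WIN 18,446. Dppa3 was at background on all arrays, and the germ cell sums were 15.32 and 15.24 against 15.17 and 15.20. Leydig cell markers were tested in 7 of 7 with 0 called and sums of 15.73 and 15.61 against 15.63 and 15.51. Their difference was negative in 6 and positive in 1, with a median of -0.31. Peritubular and stromal ones were tested in 11 of 13 with 1 lower (Des), Cnn1 at background and sums of 17.27 and 17.35 against 17.21 and 17.28. Macrophage markers were tested in 3 of 10, with Cx3cr1, Fcgr1 and C1qa at background, 0 called and sums of 11.23 and 11.54 against 10.47 and 11.22. The 1 tested erythroid gene of 3, Hbb-b2, was at -1.42 without a call (adjusted p = 0.0618), Hba-a1 and Alas2 were at background, and the sums were 10.54 and 10.38 against 8.65 and 9.46. Of epididymal, mesonephric and mesothelial markers 4 of 8 were tested and 0 called, with Upk3b and Msln at background and sums of 11.27 and 11.38 against 11.51 and 11.47. At an unadjusted p under 0.05 limma gave 22.0% of all tested probe sets. Among these markers it gave 4 Leydig, 0 macrophage, 1 erythroid and 0 epididymal, mesonephric or mesothelial genes. The part of any of these in the transporter differences was not tested.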

How the data were processed

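The deposited table holds log2 levels, 1 column per array (2 vehicle, 2 WIN 18,446) and 1 line per probe set. RMA and GCRMA, both array normalizations, are named per the submitters' processing notes without version or role, so the background correction behind dim values is not known. The log2 scale was read from the values. Probe sets were named by GEO's annotation of the array. All 40 member genes were found by gene ID in RefSeq (GRCm38.p6). A probe set with several symbols (1 here) was left out.

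The 64 control probe sets were removed, and the 20895 of 45037 probe sets with a mean of at least 5 were fitted with limma 3.58.1 in R 4.3.3 (lmFit, eBayes with a variance trend, 2 residual and 3.19 prior degrees of freedom), two-sided, with Benjamini-Hochberg adjustment over all of them. Simulated data were used to check it. With 2 arrays against 2 an exact permutation test cannot go below 0.333, so none is given. The number of arrays limits the precision.

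The members and lists were chosen with earlier results of these data known. Any member could be named. Full values go to called members, those with an absolute difference of at least 1 and the known Atf4 targets. Of each list, up to 6 called genes, or up to 2 where none was called, are named by smallest p. Atf4, Eif4ebp1, Asns, Trib3, Eif2ak4, Mtor, Slc6a6, Gclc, Ggct, Hbb-b2, Amh, Dazl, Ddx4, Stra8, Eng and Cd34 were chosen after their values were seen. A list's summed level is the log2 of its summed linear levels. Deviations of same-numbered arrays correlated at 0.014 over all tested probe sets. The labels do not say whether the numbers pair the samples, and a correlation over all probe sets cannot decide it.

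Alternatives were other level filters, other scalings, robust moderation or no variance trend, a block for the replicate number, leaving out each array in turn, averaged probe sets and an adjusted p under 0.10.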

Additional observations from a re-analysis of the deposited data

How the results depend on the processing

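The count of all called probe sets, 1083, was 3 without the level filter, 372 without a variance trend and 2216 at an adjusted p under 0.10, and it ran from 0 to 1398 with 1 array left out. The 4 higher transporter probe sets were 0 without the level filter and 2 without a variance trend, and ran from 0 to 4 with 1 array left out. In the same order the 2 lower ones were 0, then 1, then 0 to 3. At an adjusted p under 0.10 the transporters had 6 probe sets higher and 3 lower, the additions being of Slc38a1, Slc38a5 and Slc7a8. With the replicate number as a block 1467 probe sets were called, 4 higher and 2 lower among the transporters. No paired design follows from the labels, and the block changed no transporter call. The 5 called genes kept their direction under every alternative run. Several alternatives could not change it, since other level filters, moderation settings and the block leave the difference itself as it was. Only other scalings, 1 array left out or averages over several probe sets could change a sign, also for the uncalled genes below. Of 260 values of the 20 uncalled genes, 251 kept direction and side, 1 passed the threshold (Slc7a8, given above) and 8 changed sign. With 1 array left out the ranges were -0.059 to 0.13 for Slc1a6, -0.0046 to 0.11 for Slc36a4, -0.0066 to 0.23 for Slc38a2, -0.28 to 0.023 for Slc38a7, -0.10 to 0.15 for Slc38a10 and -0.14 to 0.42 for Slc43a3. Among uncalled genes that kept their sign, 1 array left out also moved Slc7a5 (0.074 to 0.32), Slc7a1 (0.0033 to 0.13), Slc3a1 (-0.49 to -0.029), Slc7a2 (-0.84 to -0.39), Slc1a3 (-0.61 to -0.26), Slc36a1 (-0.33 to -0.022), Slc38a4 (-0.35 to -0.12) and Slc38a6 (-0.28 to -0.079) by over 1.5 times. The mean over Slc38a10 probe sets was -0.16. The cause was not tested. Dim probe sets limit the calls: 46 of the 86 were too dim for a test.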

Other observations

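Carriers of mitochondria, lysosomes and vesicles held 19 tested genes of which limma called 0. At an unadjusted p under 0.05 it gave 4 of them, against 22.0% of all tested probe sets. The nearest was Slc25a39, a mitochondrial glutathione carrier, which read 12.96 and 12.99 with vehicle and 13.22 and 13.29 with WIN 18,446 (difference 0.28, adjusted p = 0.0791). Slc25a38, the mitochondrial glycine carrier, read 8.78 and 8.63 against 8.16 and 8.03 (difference -0.61, adjusted p = 0.122).

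Among enzymes that use the imported amino acids, Aldh18a1 rose and Asl, the argininosuccinate lyase that makes arginine, fell from 13.08 and 12.95 to 12.52 and 12.51 (difference -0.50, adjusted p = 0.0333), with 17 of 19 tested genes not called. In glutathione synthesis and redox 1 of 18 tested genes was called, Chac1, which was higher. Of all genes 2.94% were called higher and 3.46% lower, so single calls in these lists are not read as results. Aldh18a1 and Chac1 were also counted in the amino acid response list. The rate-limiting subunit Gclc differed by 0.41 (adjusted p = 0.147), and Ggct, which breaks down gamma-glutamyl amino acids, by -0.70 (adjusted p = 0.0748).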
